A study of Drosophila melanogaster and Drosophila melanogaster x Drosophila simulans and Drosophila simulans with 6 samples.

Results

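The proteasome subunit genes of D. melanogaster are the genes that encode the canonical subunits of the 26S particle. The rule that defines them uses gene identity and no measured value, and it gives 32 genes out of the 13973 D. melanogaster features in a table of 28229 features of both species. Of these, 14 encode the 20S core particle (7 alpha and 7 beta subunits) and 18 encode the 19S regulatory particle (10 base and 8 lid subunits). PolyA-selected RNA was sequenced from the ovaries of F1 hybrid females (2 libraries), of the maternal D. melanogaster line Hmr2 (2 libraries) and of the paternal D. simulans line w501 (2 libraries). Hybrid females came from Hmr2 mothers and w501 fathers and were aged for a few days after eclosion, as were the parental females. The Hmr2 line carries the Hmr2 rescue allele, y2, and the inversions In(1)w[m4] and In(1)AB on the X chromosome, so every hybrid female carried 1 such X chromosome beside 1 X of D. simulans. According to the study, only part of the hybrid females develop ovaries, so the hybrid libraries describe that class of females. The study describes the libraries of a group as biological replicates, without saying whether they came from separate crosses, and the p-values measure the spread between these libraries only.

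Because the reads were assigned to transcripts of both species at once, a hybrid library splits into a D. melanogaster and a D. simulans portion. D. melanogaster genes held 45.1% and 47.7% of the counts in hybrid ovaries, against 97.0% and 97.3% in D. melanogaster ovaries, out of 13625547 to 19443493 counts per library. All normalised read counts below are CPM values, that is, counts scaled to a common total over the D. melanogaster genes of a library and adjusted by TMM, so a log2 fold change of zero means that the maternal allele of a gene kept pace with the maternal genome. Had the libraries been scaled to the totals of both species, the median D. melanogaster gene would have moved by -0.913 on the log2 scale. The D. simulans alleles of the subunit genes were not analysed here. The D. simulans libraries gave 718 and 1036 counts over all subunit genes, which measures how many D. simulans reads are placed on the wrong allele.

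The 26S proteasome degrades proteins tagged with ubiquitin chains. Its barrel-shaped 20S core consists of outer alpha rings, which form a gate, and inner beta rings, which hold the protease sites. The 19S particle sits on the barrel: the base unfolds substrates with a ring of ATPases and feeds them through the gate, and the lid removes the ubiquitin. In the Drosophila ovary the mature egg is loaded with maternal proteasomes, and the genes are expressed in germline and somatic cells alike. The subunits are needed in fixed proportions within each particle, so the balance of core and regulatory genes is the measure followed below.

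All subunit genes but Prosalpha1 were strongly expressed. The lowest normalised read count of the 31 measured members was 169 CPM in hybrid ovaries and 154 CPM in D. melanogaster ovaries, and the highest was 709 CPM in hybrid ovaries and 551 CPM in D. melanogaster ovaries (plot of read counts by library). Their estimated counts were never below 1387 in these 4 libraries. Together the subunit genes took 0.8842% and 0.8909% of the D. melanogaster counts in hybrid ovaries (95% Wilson intervals 0.8776 to 0.8909% and 0.8845 to 0.8974%). In D. melanogaster ovaries they took 0.777% and 0.7431% (0.773 to 0.781% and 0.7385 to 0.7477%). These intervals cover counting error only. The regulatory genes contributed 0.5746% and 0.5835% in hybrid ovaries, against 0.4591% and 0.4673% in D. melanogaster ovaries. The core genes contributed 0.3096% and 0.3074% in hybrid ovaries, against 0.3179% and 0.2758% in D. melanogaster ovaries. The share of the regulatory genes was thus separated between the groups, whereas the core shares of the hybrids lay between those of the D. melanogaster replicates. TMM scaling shifts all genes of a library relative to such raw shares, and the tests below use the TMM-scaled counts.

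**Figure D1:**
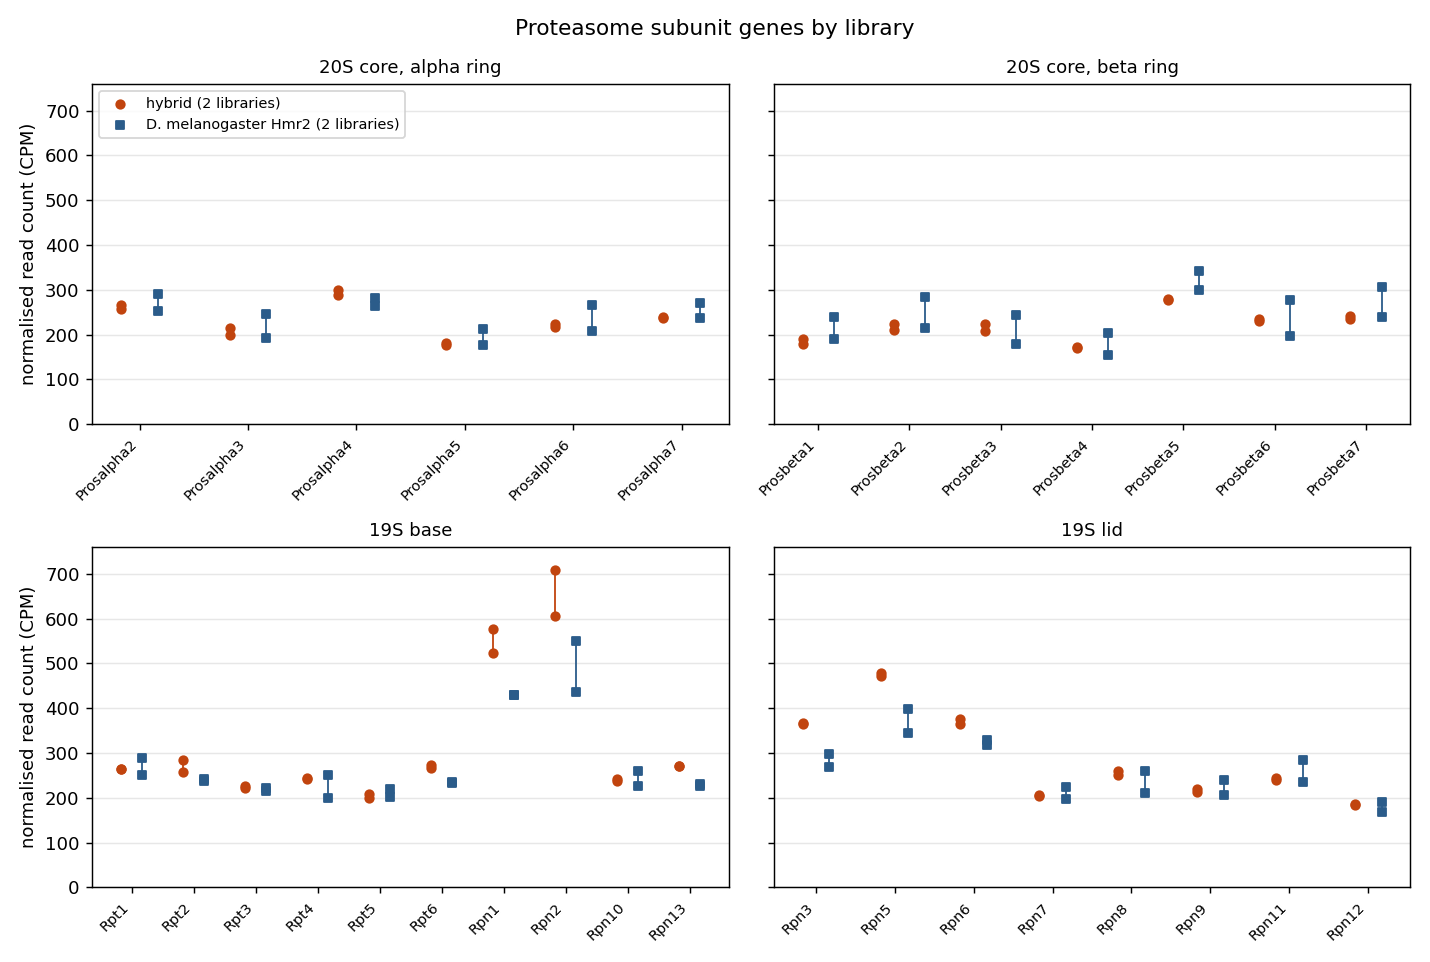
Normalised read counts (y axis, CPM of D. melanogaster genes after TMM) of the 31 measured subunit genes (x axis), with 1 panel for each subcomplex. Each point is 1 library (circles, hybrid; squares, D. melanogaster Hmr2) and lines join the 2 replicates of a group. Rpn1, Rpn2, Rpn3 and Rpn5 are the members whose hybrid points lie highest above the D. melanogaster points. On this axis Rpn2 has the widest gap between the D. melanogaster replicates (437 and 551 CPM). As a log2 ratio, the median gap between these replicates is largest in the beta subunit genes (0.4).

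Levels of different genes can be compared only per transcript length, and for this TPM values were rescaled to sum to the same total over the D. melanogaster genes. This scale is used here to compare genes within a library. Between the groups it puts the median of all tested genes 0.44 higher in hybrid ovaries (log2, limma with a pseudocount of 1) and the core median 0.37 higher, whereas on the TMM scale the core median was -0.10. On this scale the core genes had a median level of 446 and 469 in the hybrid libraries, against 339 and 337 in the D. melanogaster libraries (n = 14 genes, with Prosalpha1R standing for Prosalpha1). The regulatory genes had a median level of 329 and 352 in hybrid ovaries, against 206 and 247 in D. melanogaster ovaries (n = 18 genes). Core genes were therefore above regulatory genes in each of the 4 libraries, with a ratio of the medians of 1.35 and 1.33 in hybrid ovaries and 1.65 and 1.36 in D. melanogaster ovaries. Prosalpha2, a gate-ring subunit, had the highest level of the members in every one of these libraries, at 547 and 569 in hybrid ovaries against 398 and 442 in D. melanogaster ovaries. Rpt5, one of the ATPases, had the lowest level in both hybrid libraries and in D. melanogaster replicate 2, and Rpn2 the lowest in D. melanogaster replicate 1.

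The levels were similar among the genes of each particle. Over both particles together, the highest member exceeded the lowest 2.40-fold and 2.37-fold in the hybrid libraries, against 2.62-fold and 2.33-fold in the D. melanogaster libraries. The coefficient of variation among the core genes was 9.41% and 10.7% in hybrid ovaries, against 9.33% and 12.1% in D. melanogaster ovaries. Among the regulatory genes it was 15.3% and 14.6% in hybrid ovaries, against 16.0% and 11.4% in D. melanogaster ovaries. In the D. melanogaster libraries no regulatory gene reached the level of the lowest core gene. In both hybrid libraries 2 regulatory genes did so, the lid subunits Rpn3 and Rpn5.

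No subunit gene passed the test between hybrid and D. melanogaster ovaries. With edgeR's quasi-likelihood test, 0 of the 31 tested members had an adjusted p-value below 0.05, whereas 21.8% of the 8202 genes tested did so, 6.80% higher and 15.0% lower in hybrid ovaries. At the study's thresholds of 2-fold and an adjusted p-value of 0.05 the count was also 0, beside 13.2% of all genes (2.99% higher and 10.3% lower in hybrid ovaries). At an unadjusted p-value below 0.05 edgeR still gave 0 members, beside 40.7% of all genes, and DESeq2 gave 0 members at an adjusted p-value below 0.05, beside 10.3% of all genes higher and 15.9% lower in hybrid ovaries. With limma on rescaled TPM, which shifts all genes upwards, 13 members rose (pseudocount 1, beside 18.6% of all genes) or 9 rose (pseudocount 0.1, beside 13.3%), and 0 members fell, beside 7.03% and 6.11% of all genes. In the edgeR fit the adjusted p-values of the members ran between 0.13 and 0.932. The log2 fold changes, hybrid over D. melanogaster, ran between -0.23 and 0.41 with a median of -0.03, and 14 members had positive and 17 negative values.

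A missed threshold does not show equality, and the intervals say how large a change these data leave possible (plot of log2 fold changes with intervals). The 95% interval lay within a 2-fold change in either direction for all 31 tested members, as it did for 55.3% of all genes tested. Across the members the interval bounds reached from -0.64 to 0.88. In 11 members (35.5%) the hybrid values did not overlap with the D. melanogaster values, beside 73.7% of all genes. Both hybrid libraries were above both D. melanogaster libraries in 9 members, beside 36.6% of all genes, and below them in 2 members, beside 37.1% of all genes. In 21 of 31 members (67.7%) the fold change was smaller than the gap between the 2 D. melanogaster replicates, as in 37.5% of all genes tested.

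**Figure D2:**
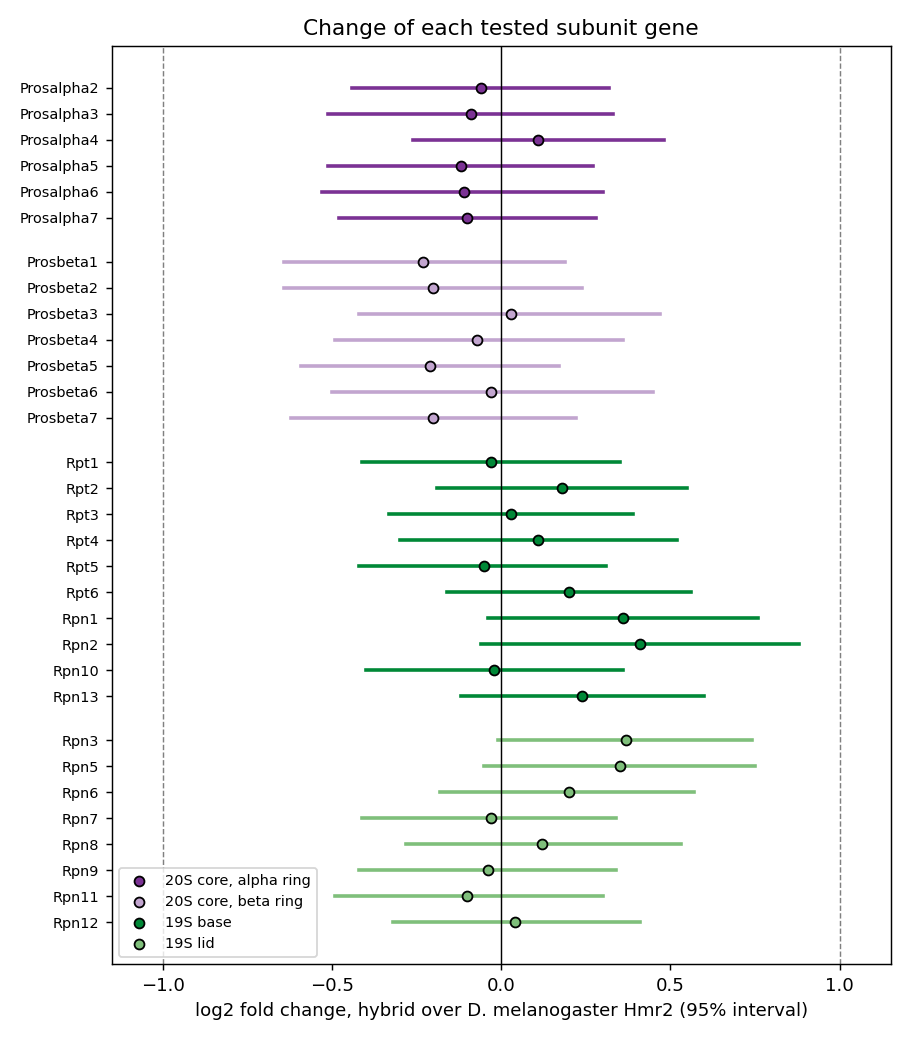
Log2 fold change of each tested subunit gene, hybrid over D. melanogaster Hmr2 (x axis), with the genes listed by subcomplex (y axis). Horizontal lines are 95% intervals calculated from the edgeR F statistic. Dashed lines mark a 2-fold change in either direction. All 31 intervals lie between the dashed lines, and most core points lie left of zero while 12 of 18 regulatory points lie right of it.

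In the 20S core the values centred slightly below zero. The 13 tested core genes had a median log2 fold change of -0.10 (range -0.23 to 0.11), with 2 positive and 11 negative values. This sign depended on the scaling, since the median was 0.05 with total counts in place of TMM and 0.37 with limma on rescaled TPM. These alternatives moved the median of all tested genes to 0.15 and 0.44, so that the core median was below that of all genes under each of these scalings. Without D. melanogaster replicate 1 the core median was 0.04, above the median of all genes in that fit, and without replicate 2 it was -0.28.

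The alpha ring genes had a median of -0.09. The highest of them by fold change was Prosalpha4 (Dmel_CG3422, X chromosome, 16276270 to 16277587), with 289 and 300 CPM in hybrid ovaries, against 282 and 264 CPM in D. melanogaster ovaries. Both hybrid values were above both D. melanogaster values, with a log2 fold change of 0.11 (edgeR, SE 0.16, adjusted p-value 0.614). The lowest by fold change was Prosalpha5 (Dmel_CG10938, 2R, 17412767 to 17413769), with 182 and 177 CPM in hybrid ovaries, against 213 and 177 CPM in D. melanogaster ovaries. Here the groups overlapped, since replicate 2 of D. melanogaster was as low as the hybrids, and the log2 fold change was -0.12 (edgeR, SE 0.17, adjusted p-value 0.609). Prosalpha2, Prosalpha3, Prosalpha6 and Prosalpha7 also overlapped between the groups and had log2 fold changes between -0.11 and -0.06.

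The beta ring genes had the lowest median of the subcomplexes, at -0.20. Prosbeta1, Prosbeta2 and Prosbeta5 encode the subunits with the protease sites, of caspase-like, trypsin-like and chymotrypsin-like specificity. Prosbeta1 (Dmel_CG8392, 2R, 16013805 to 16014787) had 178 and 189 CPM in hybrid ovaries, against 240 and 189 CPM in D. melanogaster ovaries. It was the lowest member by fold change, at -0.23 (edgeR, SE 0.18, adjusted p-value 0.354), and its higher hybrid value was barely under D. melanogaster replicate 2. Prosbeta5 (Dmel_CG12323, 2R, 10819978 to 10821178) had 279 and 276 CPM in hybrid ovaries, against 341 and 299 CPM in D. melanogaster ovaries. It was the other member whose hybrid values were both below the D. melanogaster values (log2 fold change -0.21, edgeR, SE 0.16, adjusted p-value 0.363). Prosbeta2 had 210 and 223 CPM in hybrid ovaries, against 284 and 214 CPM in D. melanogaster ovaries. Its groups overlapped and its log2 fold change was -0.20 (SE 0.19).

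Of the beta subunits without a protease site, Prosbeta3 (Dmel_CG11981, 3R, 9005313 to 9006226) had the highest fold change, with 208 and 223 CPM in hybrid ovaries, against 243 and 180 CPM in D. melanogaster ovaries. Both hybrid values lay between the D. melanogaster replicates, with a log2 fold change of 0.03 (edgeR, SE 0.19, adjusted p-value 0.927). Prosbeta7 had a log2 fold change of -0.20, Prosbeta4 of -0.07 and Prosbeta6 of -0.03, each with overlapping groups.

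Among the regulatory genes the values were centred above zero. The 18 genes had a median log2 fold change of 0.11 (range -0.10 to 0.41), with 12 positive and 6 negative values. In 8 of them (44.4%) the hybrid values were both above the D. melanogaster values, beside 36.6% of all genes. In 0 they were both below, beside 37.1% of all genes, and in 10 the groups overlapped. The median was 0.27 with total counts in place of TMM and 0.59 with limma on rescaled TPM, above the median of all tested genes under each of these scalings. It was -0.04 when D. melanogaster replicate 2 was left out and 0.18 when replicate 1 was.

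The base had a median of 0.14. Its non-ATPase scaffold subunits Rpn1 and Rpn2, which dock ubiquitin-binding factors and the lid, had the largest read counts of all members. Rpn2 (Dmel_CG11888, 3R, 29153524 to 29157255) had 605 and 709 CPM in hybrid ovaries, against 437 and 551 CPM in D. melanogaster ovaries. The groups did not overlap, but the nearest libraries of the groups were closer to each other than the replicates within either group. The log2 fold change was 0.41 (edgeR, SE 0.20, adjusted p-value 0.163), the highest of the members. Rpn1 (Dmel_CG7762, 3L, 19915051 to 19918160) had 523 and 577 CPM in hybrid ovaries, against 429 and 429 CPM in D. melanogaster ovaries. Both hybrid libraries were higher and the D. melanogaster replicates were nearly equal (log2 fold change 0.36, edgeR, SE 0.17, adjusted p-value 0.155). The ubiquitin receptor Rpn13 had 272 and 270 CPM in hybrid ovaries, against 232 and 226 CPM in D. melanogaster ovaries, a separation of the groups with a log2 fold change of 0.24 (edgeR, SE 0.15, adjusted p-value 0.262). The other ubiquitin receptor, Rpn10, overlapped between the groups, with a log2 fold change of -0.02.

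The ATPases of the base ring stayed close to zero. The 6 Rpt genes had a median log2 fold change of 0.07 (range -0.05 to 0.20), and in 4 of them the groups overlapped. Rpt5 (Dmel_CG10370, 3R, 23752876 to 23754623), the lowest of the base by fold change, had 199 and 208 CPM in hybrid ovaries, against 220 and 202 CPM in D. melanogaster ovaries. These values overlapped, and the log2 fold change was -0.05 (edgeR, SE 0.16, adjusted p-value 0.818). Rpt6 had 267 and 273 CPM in hybrid ovaries, against 236 and 233 CPM in D. melanogaster ovaries. The groups were separate and the log2 fold change was 0.20 (edgeR, SE 0.15, adjusted p-value 0.349). However, 13.0% of the exonic bases of Rpt6 overlap with CG1801 on the opposite strand, a gene with a log2 fold change of -2.30 (edgeR adjusted p-value 0.0101). The library kit was directional, but the quantification settings listed by the study name no strand option, and the part of this overlap in the value of Rpt6 was not tested. In the other members at most 8.28% of exonic bases overlap with another gene.

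In the lid the median was 0.08. Rpn3 (Dmel_CG42641, 2L, 19051790 to 19053681), a PCI-domain subunit of the lid's horseshoe, had 366 and 364 CPM in hybrid ovaries, against 268 and 298 CPM in D. melanogaster ovaries. Both hybrid libraries were higher, and the log2 fold change of 0.37 (SE 0.16) had the smallest adjusted p-value of the members, 0.13 with edgeR. Rpn5 (Dmel_CG1100, 3R, 5789493 to 5791569), another PCI-domain subunit, had 471 and 478 CPM in hybrid ovaries, against 398 and 345 CPM in D. melanogaster ovaries. Again the groups were separate, with a log2 fold change of 0.35 (edgeR, SE 0.17, adjusted p-value 0.161). The lid's deubiquitinase Rpn11 (Dmel_CG18174, 2L, 5058404 to 5059790) had the lowest fold change of the lid, with 239 and 245 CPM in hybrid ovaries, against 284 and 235 CPM in D. melanogaster ovaries. Its groups overlapped (log2 fold change -0.10, edgeR, SE 0.17, adjusted p-value 0.676). Its partner Rpn8 had a log2 fold change of 0.12, and Rpn7, Rpn9 and Rpn12 had values between -0.04 and 0.04, all with overlapping groups.

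Rpn6, a lid subunit that bridges to the core, was the member most affected by wrongly placed reads. It held 549.4 and 794.6 counts in the D. simulans libraries, which corresponds to 12.2% and 11.5% of its counts in the hybrid libraries. Its values were 376 and 365 CPM in hybrid ovaries, against 329 and 319 CPM in D. melanogaster ovaries, and its log2 fold change of 0.20 became 0.05 after these reads were subtracted (edgeR, SE 0.16, adjusted p-value 0.833). For Rpt5 the corresponding share was at most 1.33%, and for the other 29 tested members at most 0.426%.

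The contrast between core and regulatory particle was small and had the same sign under every setting tried. The median log2 fold change of the core genes minus that of the regulatory genes was -0.21. The SD between replicates for the same difference, pooled over the groups, was 0.09, and nearly all of it came from the D. melanogaster pair. Over the 11 alternatives that kept all libraries the difference ran between -0.22 and -0.17. Scaling shifts the genes of a library together and mostly cancels in this difference, and these alternatives reused the same libraries. Their narrow range was therefore largely fixed in advance and is no separate evidence. When 1 library was left out, the difference ran between -0.24 and -0.14. Within single libraries, the core median minus the regulatory median (log2 CPM, each gene relative to its mean over the 4 libraries) was -0.09 and -0.10 in hybrid ovaries, against 0.18 and 0.00 in D. melanogaster ovaries. The hybrid replicates were nearly equal, and D. melanogaster replicate 2 was closer to them than to D. melanogaster replicate 1. The summed counts gave the same order, with 0.539 and 0.527 core counts for each regulatory count in hybrid ovaries, against 0.692 and 0.590 in D. melanogaster ovaries. With 2 libraries in each group, an exact permutation test cannot give a two-sided p below 0.333, and no test was run on this difference.

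D. melanogaster replicate 1 stood apart in the core genes (plot of deviations by library). Its values exceeded those of replicate 2 in 13 of 13 core genes, with a median log2 gap of 0.35 (0.10 to 0.51). In the regulatory genes they were higher in 14 of 18, with a median of 0.14 (-0.34 to 0.33), and over all tested genes the median gap was 0.02. The hybrid replicates had a median gap of -0.03 over the 31 tested members. Without D. melanogaster replicate 2, edgeR at an adjusted p-value below 0.05 called 3 members higher (Rpn1, Rpn2 and Rpn3) and 10 lower in hybrid ovaries, beside 27.8% and 31.7% of all genes in that fit. The 10 lower members were Rpn11 and 9 core genes, which were Prosalpha3, Prosalpha5, Prosalpha6 and every beta gene but Prosbeta3. Without D. melanogaster replicate 1, edgeR called Rpn1, Rpn3 and Rpn5 higher in hybrid ovaries, beside 14.2% of all genes, and 0 members lower, beside 20.4%. Against either D. melanogaster replicate alone, Rpn1 and Rpn3 had log2 fold changes between 0.29 and 0.41, and neither was called against both together. In these fits the lone library is assumed to vary like the hybrid replicates, which differ little from each other.

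**Figure D3:**
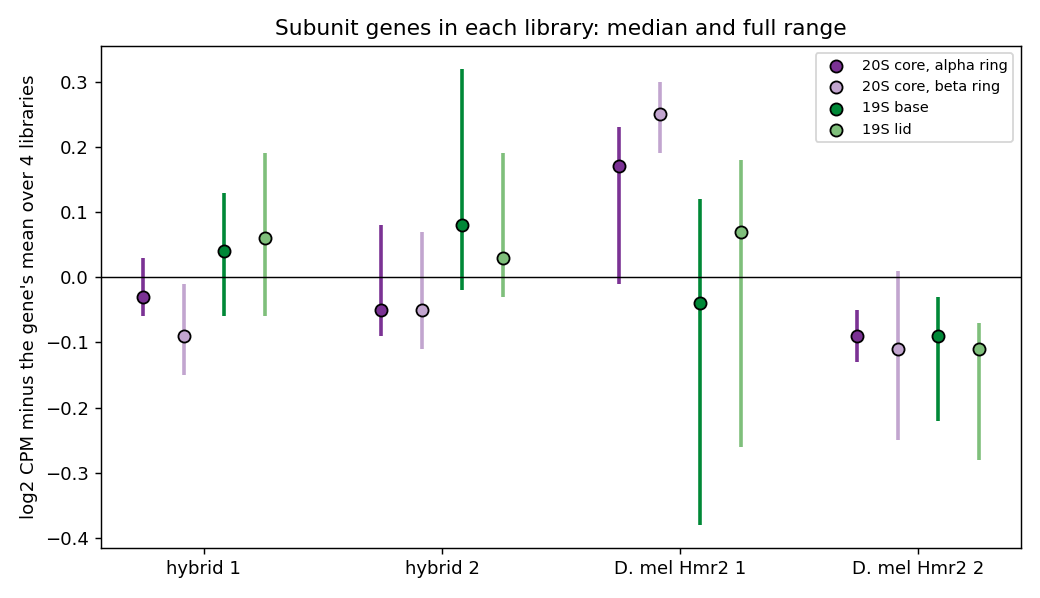
Deviation of the subunit genes from each gene's mean over the 4 libraries (y axis, log2 CPM) in the 2 hybrid and the 2 D. melanogaster Hmr2 libraries (x axis). Points are medians and lines the full range over the genes of a subcomplex. The core subcomplexes lie highest in D. melanogaster replicate 1, with medians of 0.17 and 0.25, and are near or below zero in the other 3 libraries.

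Core and regulatory genes also differ in length. The exonic length of the tested members had a median of 973 bases in the core (shortest 815) and of 1589 bases in the regulatory particle (995 to 3412). Across the 31 members the log2 fold change went with exonic length, at Spearman's rho of 0.70 (plot of change against length). Within the regulatory genes rho was 0.62 (n = 18), within the core genes it was -0.20 (n = 13), and over all tested genes it was 0.31 (n = 8194). The 4 members with the largest fold changes, Rpn1, Rpn2, Rpn3 and Rpn5, were among the longest. The gap between D. melanogaster replicates 1 and 2 went the other way, with rho of -0.67 across the members and -0.41 over all tested genes. These correlations are across genes that share the same 4 libraries, genes are not independent replicates, and the part of length in the core and regulatory contrast was not tested.

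**Figure D4:**
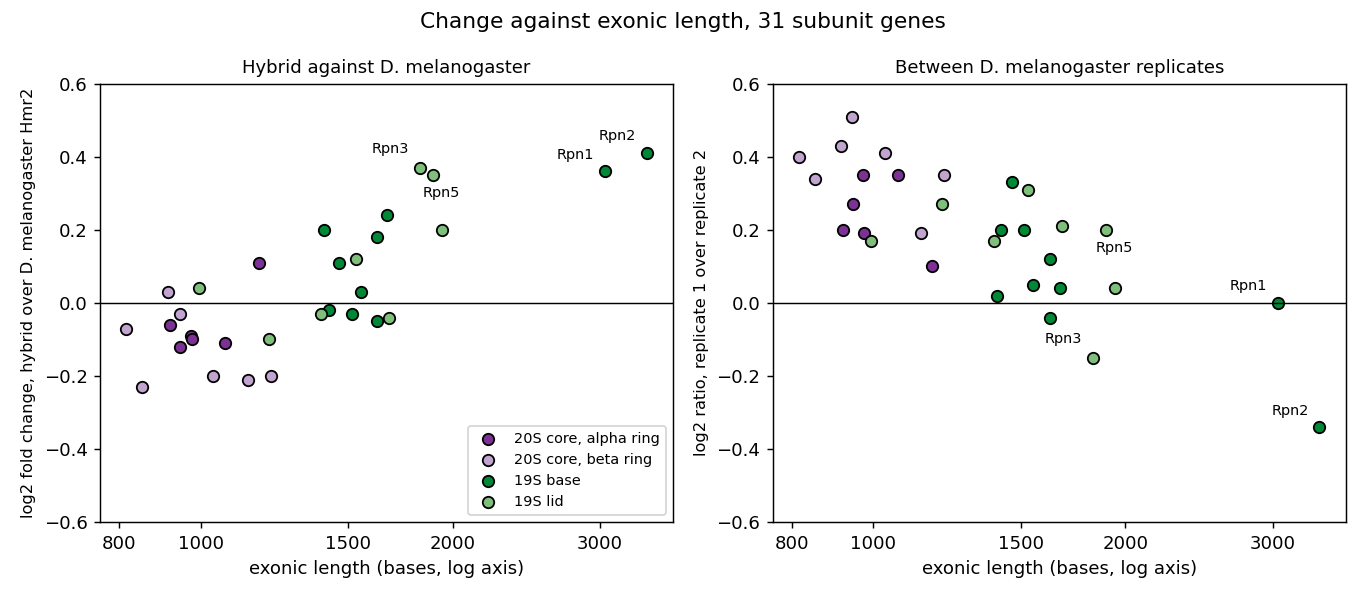
Left, log2 fold change of the 31 tested subunit genes, hybrid over D. melanogaster Hmr2, against exonic length in bases (log axis). Right, log2 ratio of D. melanogaster replicate 1 over replicate 2 for the same genes; colours mark the subcomplexes. Long regulatory genes such as Rpn1 and Rpn2 lie at the top on the left and at or below zero on the right, whereas short core genes lie near or below zero on the left and above zero on the right.

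The members are spread over the chromosome arms, with 10 on 2R, 9 on 3R, 5 on 3L, 4 on 2L and 4 on the X chromosome. The X-linked members are Prosalpha4, Rpt3, Rpt4 and Rpt6. Their log2 fold changes were 0.03 to 0.20 (median 0.11), and the 27 tested autosomal members had a median of -0.03. Over all tested genes the median was 0.00 for X-linked and for autosomal genes alike.

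Prosalpha1 (Dmel_CG18495, 2R, 7827303 to 7828678) was listed at essentially 0 counts in all 6 libraries. The gene next to it, Prosalpha1R (Dmel_CG30382, 2R, 7830413 to 7831771), lies 1734 bases away and has 3 coding exons of the same lengths (76, 177 and 479 bases, 732 bases in each gene). Prosalpha1R had 1784 and 1942 counts in hybrid ovaries, against 3993 and 2568 counts in D. melanogaster ovaries. Its normalised read counts were 221 and 229 CPM in hybrid ovaries, against 231 and 197 CPM in D. melanogaster ovaries, which overlapped and were in the range of the other alpha genes (log2 fold change 0.07, edgeR, SE 0.16, adjusted p-value 0.757). The counts of the 2 genes are uncertain, since reads from such a pair may not be separable, and their sum also gave a log2 fold change of 0.07. Prosalpha1 therefore has no test of its own.

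Other proteasome genes of Drosophila encode variant subunits, many of them known from the testis. All 15 genes of this list were found, but only Rpt3R had enough counts for a test, with 20 and 24 counts in hybrid ovaries against 77 and 27 in D. melanogaster ovaries. Its log2 fold change was -0.31 (edgeR, SE 0.46, adjusted p-value 0.629), and the other 14 had at most 8 counts in any library.

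Of 14 tested assembly factors and partners of the proteasome, 1 fell and 0 rose at an adjusted p-value below 0.05, and their median log2 fold change was -0.07. Of all genes 15.0% fell and 6.80% rose at this threshold, so the count is not above that background. The one that fell was REG (Dmel_CG1591, X chromosome, 13212325 to 13214408), the nuclear activator of the 20S core that works without ATP and ubiquitin. It had 249 and 231 CPM in hybrid ovaries, against 434 and 363 CPM in D. melanogaster ovaries. Both hybrid values were well below both D. melanogaster values, with a log2 fold change of -0.73 (edgeR, SE 0.17, adjusted p-value 0.0261). Across 14 alternatives its log2 fold change stayed negative, between -0.88 and -0.26, and the adjusted p-value was below 0.05 in 8 of them. Without hybrid replicate 1 the log2 fold change was -0.78 (adjusted p-value 0.25) and without hybrid replicate 2 it was -0.67 (0.375). In these fits the spread comes from the D. melanogaster pair alone. The core maturation factor Pomp had a log2 fold change of -0.14 (edgeR adjusted p-value 0.575). The transcription factor gene cnc, the fly member of the family that drives proteasome genes after proteasome inhibition, had a value of -0.19 (edgeR adjusted p-value 0.393). Usp14, a deubiquitinase that binds the base, had a value of 0.33 (edgeR adjusted p-value 0.15).

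Upstream of the proteasome, 2 of the 15 genes for ubiquitin, its transfer and its shuttling that are reported here fell at an adjusted p-value below 0.05 with edgeR, a share near the 15.0% of all genes. The 2 that fell encode ubiquitin fused to a ribosomal protein. Ribosomal protein genes without a ubiquitin part, such as RpL6, RpL29 and RpS26, also fell in this fit. A fall was therefore not particular to the ubiquitin genes, and the ribosomal protein genes as a family were not analysed here. RpS27A had 936 and 855 CPM in hybrid ovaries, against 3060 and 1990 CPM in D. melanogaster ovaries (log2 fold change -1.50, edgeR, SE 0.27, adjusted p-value 0.0106). RpL40 had 698 and 657 CPM in hybrid ovaries, against 2010 and 1190 CPM in D. melanogaster ovaries (log2 fold change -1.24, edgeR, SE 0.28, adjusted p-value 0.0223). Neither pair of groups overlapped, and D. melanogaster replicate 1 was the higher of its replicates for both genes. Without hybrid replicate 1 or 2 the log2 fold changes were -1.56 and -1.43 for RpS27A (adjusted p-values 0.0684 and 0.111), and -1.28 and -1.19 for RpL40 (0.116 and 0.162), with the spread again taken from the D. melanogaster pair. The polyubiquitin genes Ubi-p63E and Ubi-p5E, which encode head-to-tail ubiquitin repeats, had log2 fold changes of 0.37 and 0.34, with edgeR adjusted p-values of 0.249 and 0.256.

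The shuttle factor gene Rad23 had a log2 fold change of 0.53 (edgeR adjusted p-value 0.0551), with a DESeq2 adjusted p-value of 0.0211, and Uba1, the ubiquitin-activating enzyme gene, of 0.20 (edgeR adjusted p-value 0.488). With DESeq2, 3 of the 15 genes reported here passed an adjusted p-value of 0.05 as higher in hybrid ovaries (Rad23, eff and poe, beside 10.3% of all genes) and 2 as lower (beside 15.9%). However, eff also held 6045 and 11300 counts in the D. simulans libraries, beside 11380 and 10980 counts in the hybrid libraries. D. simulans reads are thus placed on this gene. They were not subtracted in the DESeq2 fit that counted eff as higher, and a value of eff after subtraction is not given here.

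RNA levels of cell type markers differed between the groups. They were counted with edgeR at an adjusted p-value below 0.05, where 15.0% of all genes fell and 6.80% rose. Among 10 germline markers 3 fell (orb, grk and bam), and their summed level was 4621 and 4686 CPM in hybrid ovaries, against 5091 and 5937 CPM in D. melanogaster ovaries. Among 9 tested follicle cell markers 7 fell, with sums of 316.2 and 306.1 CPM in hybrid ovaries, against 609.5 and 554.7 CPM in D. melanogaster ovaries. Among 12 eggshell markers (chorion and vitelline membrane genes) 9 fell. The 12 genes summed to 2583 and 3869 CPM in hybrid ovaries, against 14830 and 8516 CPM in D. melanogaster ovaries. The vitelline membrane gene Vml, with a log2 fold change of 0.04, also held 4785 and 2992 counts in the D. simulans libraries. It held 2863 and 2575 counts in the hybrid libraries, and such reads were not subtracted from the sums. Among 10 muscle markers 9 rose, with sums of 1827 and 1733 CPM in hybrid ovaries, against 665.4 and 439.3 CPM in D. melanogaster ovaries. DESeq2 called 7 eggshell markers lower and 10 muscle markers higher, and gave the same counts as edgeR for germline and follicle cell markers. Of 6 fat body markers 3 could be tested, and 0 of these passed the edgeR test at an adjusted p-value below 0.05. With edgeR 2 had an unadjusted p-value below 0.05, and with DESeq2 1 had an adjusted p-value below 0.05. The 6 genes summed to 81.41 and 79.24 CPM in hybrid ovaries, against 163.4 and 115.2 CPM in D. melanogaster ovaries. Most of each sum was Npc2a alone, at 77.0 and 71.3 CPM in hybrid ovaries, against 155 and 95.8 CPM in D. melanogaster ovaries. No germline, follicle, eggshell or muscle marker was at 0 in both libraries of a group. In whole ovaries fewer cells of a type and less RNA per cell cannot be told apart, and the part of these cell types in the values of the subunit genes was not tested.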

How the data were processed

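Ovary RNA of 6 libraries was quantified by the authors with kallisto (version 0.50.0, per the labels) on merged RefSeq transcripts of both species and summed to protein-coding genes with tximport. The deposited table holds estimated counts and TPM values. Its 6 transcript length columns were not used. Total and D. melanogaster counts per library set the depth given with the results. Estimated counts were rounded and genes of D. melanogaster were kept with filterByExpr (minimum count of 10), which left 8202. Hybrid and D. melanogaster libraries were compared with edgeR 4.0.16 (glmQLFit and glmQLFTest, TMM, R 4.3.3, Benjamini-Hochberg adjustment over all tested genes), without a replicate block. The smallest log2 fold change and the largest of each subcomplex were named. Other genes, such as Rpn1, Rpn5 and Rpn6, were named after their values were seen. The members and gene lists were chosen with earlier results of these data known. One gene of the ubiquitin list is not reported here. CG13162 was left out of the partner list because that identifier belongs to another gene. Alternatives used DESeq2 1.42.0 and limma 3.58.1 (log2 of TPM + 1 or + 0.1). Start and end coordinates are those of RefSeq, assembly Release 6 plus ISO1 MT, and all 13973 features matched. Exonic lengths, exon overlaps and coding exons are those of the Ensembl annotation of Release 6, matched by gene symbol. All annotated exons of a protein-coding gene were merged for its length. The fit was tested on simulated data, where it recovered 76.5% of 200 genes changed 2-fold among 8202. Of the genes called there at an adjusted p-value below 0.05, 6.71% had not been changed. All genes were simulated with the same dispersion, so genes that vary more between replicates were not represented.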

Additional observations from a re-analysis of the deposited data

How the results depend on the processing

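No subunit gene was called under 9 of the 11 alternatives that kept all libraries, and the 2 exceptions were the limma fits on rescaled TPM, which move all genes upwards. With a pseudocount of 1, limma at an adjusted p-value below 0.05 called 13 members higher in hybrid ovaries (2 core and 11 regulatory), beside 18.6% of all genes, and with 0.1 it called 9 (1 core and 8 regulatory), beside 13.3%. Over all genes these fits called 831 and 796 higher and 396 and 406 lower at 2-fold, against 245 and 841 in the edgeR fit, and the core median was 0.37 and the regulatory median 0.59 in both. The median of all genes was 0.44 and 0.47 there. With total counts the regulatory median was 0.27 and the median of all genes 0.15. Signs turned with the scaling in Prosalpha5 (0.03, 0.35 and 0.36 with total counts and the limma fits), Rpt5 (0.10, 0.41 and 0.42), Rpn11 (0.05, 0.37 and 0.37) and Prosbeta1 (0.25 and 0.25 in the limma fits), and without a filter Prosbeta3 had -0.01.

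When 1 library was left out, 164 to 474 genes were higher and 578 to 1163 lower at 2-fold, and 0 to 3 members were higher and 0 to 10 lower. The core median was -0.28 to 0.04, the regulatory median -0.04 to 0.18 and their difference -0.24 to -0.14. Log2 fold changes ran from 0.03 to 0.15 in Prosalpha4, from -0.28 to 0.01 in Prosalpha5, from -0.42 to -0.05 in Prosbeta1, from -0.20 to 0.25 in Prosbeta3, from 0.25 to 0.56 in Rpn2, from -0.14 to 0.00 in Rpt5, from 0.29 to 0.41 in Rpn3 and from -0.26 to 0.04 in Rpn11. REG, RpS27A and RpL40 kept their sign in 14 alternatives, and each missed the threshold when either hybrid replicate was left out. The causes were not tested.

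With the replicate number as a block, 298 genes were higher and 901 lower, 0 members were called, and the core and regulatory medians were -0.10 and 0.12. Libraries with the same number did not deviate together across genes (correlation 0.00381). With 2 libraries in each group, this single correlation cannot show whether the numbers pair the samples. The sum of Prosalpha1 and Prosalpha1R was added after the data were seen and left the difference of the medians at -0.21.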
